A study of Mus musculus with 2 samples.

Results

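Class-switched B cells of the mouse colon were followed in 2 single-cell RNA libraries of sorted B cells. A cell was taken as switched when it held 3 or more UMIs (unique molecular identifiers, 1 per RNA molecule captured) of the constant genes Igha, Ighg1, Ighg2b, Ighg2c and Ighg3, more of these than of Ighm plus Ighd, and under 20% of its UMIs from immunoglobulin genes. This gave 176 of 7982 cells. Of these, 119 had more Igha than Ighg UMIs and are called IgA cells, and the other 57 are called IgG cells. The 5460 unswitched cells set beside them had 3 or more UMIs of Ighm plus Ighd, more of these than of the switched genes, and the same limit on immunoglobulin UMIs. The remaining cells had too few heavy chain UMIs or too much immunoglobulin RNA for either class.

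The B cells came from the colonic lamina propria of female C57BL/6J mice and were isolated by flow cytometric sorting. The day 14 group had received 2% dextran sulfate sodium (DSS), an agent that injures the colonic epithelium, in drinking water for 7 days and then 7 days of recovery. The day 0 group was the untreated control. Each day is 1 library, and the sources used here state neither ages nor how many animals were pooled. Both samples carry DSS in their treatment tag, so the days were taken from the titles. With 1 library per day no test between days was possible, so intervals on shares and on ratios between days cover counting error only. Switched and unswitched cells were both present in both libraries, and genes could be tested between these classes.

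Class switching replaces the IgM and IgD constant region of an antibody by a downstream one, while the antigen-binding variable region is kept. A cut in the DNA starts it. In the gut most switching is to IgA, to which TGF-beta and Runx proteins direct the cut, and it follows activation in Peyer's patches and isolated lymphoid follicles. A switched B cell may be in a germinal center, a resting memory cell, or on the way to becoming a plasma cell. Mouse memory B cells are commonly recognised by the surface proteins CD73 (Nt5e), CD80 and PD-L2, which occur in combinations.

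The heavy chain constant genes lie on the minus strand of mm10 chromosome 12 in the order in which switching can use them. Ighm lies at 113418558 to 113422730, Ighd at 113406604 to 113416324, Ighg3 at 113356224 to 113361232, Ighg1 at 113325240 to 113330523, Ighg2b at 113302965 to 113307933, Ighg2c at 113285325 to 113288932 and Igha, the last, at 113254830 to 113260236. The members were selected on the UMIs of these constant genes, so those values are a description. IgA cells held a median of 5 switched UMIs (3 to 1204) at day 14 and 5 (3 to 702) at day 0. IgG cells held a median of 6 at day 14 (3 to 22), against 5 at day 0 (3 to 21). The IgG class was mostly IgG2b, since Ighg2b had most Ighg UMIs in 23 of 25 IgG cells at day 14 and in 27 of 32 at day 0. Igha UMIs, which also count for the rule, were present in 6 of 25 IgG cells at day 14 and in 22 of 32 at day 0. Ighg1 led in 2 and 4 cells, and Ighg2c in 0 and 1. Ighe had 0 UMIs in the switched cells of both libraries. At day 0, 3 cells had equal Igha and Ighg UMIs and so counted as IgG.

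The rule also limited Ighm plus Ighd, of which 58 of 72 members at day 14 and 74 of 104 at day 0 had no UMI. Lambda light chain UMIs outnumbered kappa UMIs in 6.94% of switched cells at day 14 (5 of 72, exact Clopper-Pearson 95% interval 2.29 to 15.5), against 9.62% at day 0 (10 of 104, 4.71 to 17.0). In unswitched cells the shares were 5.30% at day 14 and 7.90% at day 0. At the edge of the rule, 20 members at day 14 and 28 at day 0 had exactly 3 switched UMIs, and 22 and 25 other cells that met the rest of the rule had 2. The members with 5 or more numbered 42 and 57. A further 25 cells at day 14 and 23 at day 0 met the rule on UMIs but had 20% or more immunoglobulin RNA, and 3 and 2 members lay between 10% and 20%.

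Switched cells were a smaller share of the day 14 library. At day 14 they were 1.53% of the library (72 of 4692, interval 1.203 to 1.93), and at day 0 they were 3.16% (104 of 3290, interval 2.59 to 3.82). The ratio of the shares was 0.49 (0.35 to 0.66). For IgA cells the share was 1.002% at day 14 (0.737 to 1.33), against 2.19% at day 0 (1.72 to 2.75). For IgG cells it was 0.533% at day 14 (0.345 to 0.786), against 0.973% at day 0 (0.666 to 1.37). IgA cells were 65.3% of the switched cells at day 14 and 69.2% at day 0, with overlapping intervals. A library holds what the sort delivered, so fewer switched cells and more of the other sorted cells cannot be told apart.

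Igha UMIs in other cells were also less frequent at day 14. Among unswitched cells, 12.5% had an Igha UMI at day 14 (11.3 to 13.7), against 36.1% at day 0 (34.2 to 38.1). Among barcodes outside the authors' cell set that carried T cell markers, 5 of 49 (10.2%) had an Igha UMI at day 14. At day 0, 22 of 60 (36.7%) did. Whether these UMIs were free RNA was not tested, nor was their part in the day difference. Median depth was 2361 UMIs at day 14 and 2340 at day 0 in unswitched cells. Of unswitched cells, which by their definition held still more Ighm plus Ighd, 3 of 3168 (0.0947%) at day 14 and 27 of 2292 (1.18%) at day 0 held 3 or more Igha UMIs. Of IgA cells, 43 of 47 at day 14 and 69 of 72 at day 0 did. How many IgA cells reached the rule's 3 UMIs through free RNA was not tested, nor how many IgG cells, for which Igha UMIs also count. Ighg2b was less frequent in such cells, with a UMI in 1.89% of unswitched cells at day 14 and 1.44% at day 0. Unlike the share of IgG cells, this was not lower at day 14. Of T barcodes, 1 of 49 and 0 of 60 had one (0 of 60 allows a share of up to 5.96% by the exact interval). At 5 or more switched UMIs the day ratio was 0.52 (0.34 to 0.78), with 0.895% of cells at day 14 and 1.73% at day 0.

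**Figure D1:**
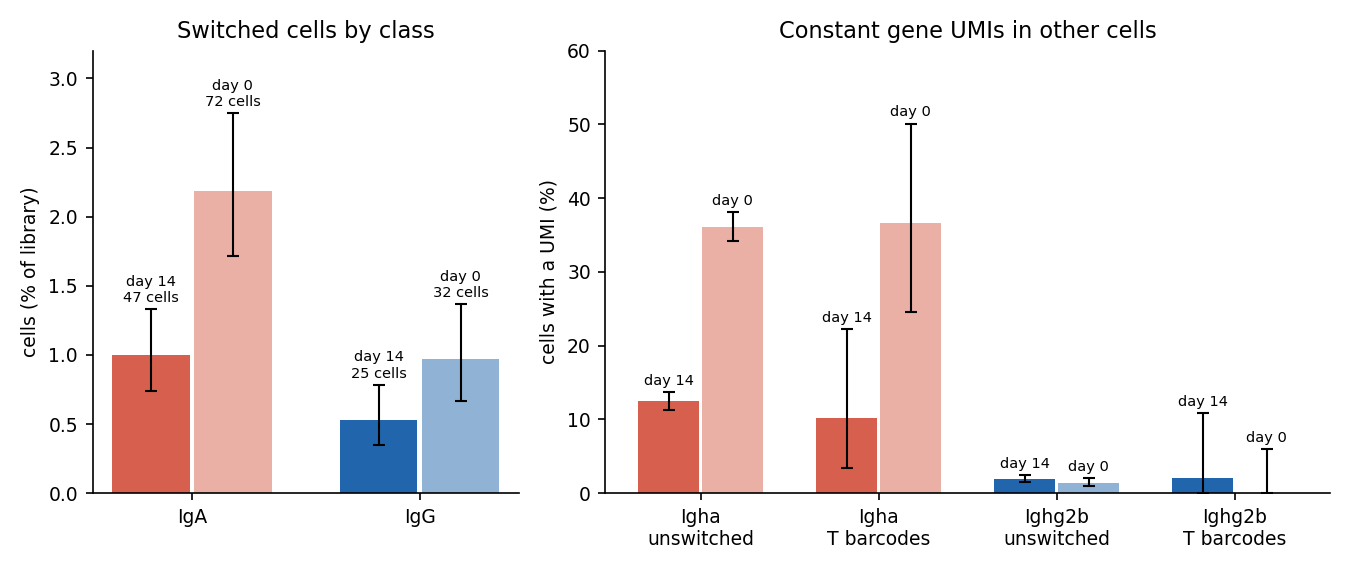
Left, IgA and IgG cells as a share of each library's cells (percent), with day 14 in full and day 0 in pale colour; right, the percentage of unswitched cells and of T cell barcodes with at least 1 UMI of Igha or Ighg2b. Bars are 1 library each and error bars are exact Clopper-Pearson 95% intervals; both classes have smaller shares at day 14, and Igha UMIs in other cells are about as frequent in T barcodes (10.2% and 36.7%) as in unswitched cells (12.5% and 36.1%).

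The switched cells were B cells by their markers. The 7 mature B cell markers, among them Cd79a and Ms4a1, were all detected and summed to 24300 CPM (UMIs scaled to the summed UMIs of all genes but immunoglobulin and mitochondrial ones) at day 14 and 25322 at day 0, against 32464 and 34109 CPM in unswitched cells. T cell markers summed to 2 UMIs at day 14 and 5 at day 0 over 2 of 9 genes each, with Cd3e, Cd3g, Cd8a, Il7r and Lat at 0 in both. Myeloid markers had 7 and 15 UMIs over 4 and 3 of 9 genes, and epithelial markers 16 and 8 UMIs over 2 and 3 of 7 genes. Epithelial markers stood at 51.8 and 19.3 CPM in switched cells, against 10.7 and 13.8 CPM in unswitched cells. Their part in the results was not tested. Switched cells were deeper than unswitched ones, with medians of 3572 UMIs at day 14 and 3199.5 at day 0, against 2361 and 2340. Cells over 2 times their library's median UMIs were 30.6% of switched cells at day 14 and 22.1% at day 0. Of unswitched cells they were 8.33% and 4.84%. Such deep cells were 44.0% and 18.8% of IgG cells, and 23.4% and 23.6% of IgA cells. Doublets among them were not called. No member was among the 17 barcodes found in both libraries.

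In a clustering that left out immunoglobulin genes, the switched cells came together. Cluster 9, of 235 cells, was led by Basp1, Rgs1, Nt5e, Cd80, Rrad and Cd44. It held 119 of 176 switched cells (67.6%) and 36 of 5460 unswitched cells (0.659%). Of the IgA cells it held 76.6% at day 14 (36 of 47, interval 62.0 to 87.7) and 69.4% at day 0 (50 of 72, interval 57.5 to 79.8). Of the IgG cells it held 48.0% at day 14 (12 of 25, interval 27.8 to 68.7) and 65.6% at day 0 (21 of 32, interval 46.8 to 81.4). Cluster 12, led by the germinal center genes Rgs13 and Mef2b and the replication gene Pclaf, held 10 IgA and 7 IgG cells. Cluster 11, led by Slpi, Ly6c2 and Edem1, held 5 IgA and 0 IgG cells, with a median of 17716 UMIs per cell. The other 35 switched cells were spread over the remaining clusters.

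IgA cells were also divided by their switched UMIs. Of IgA cells with 3 or 4 switched UMIs, 16 of 19 lay in cluster 9 at day 14 and 23 of 33 at day 0. Of those with 5 or more, 20 of 28 lay there at day 14 and 27 of 39 at day 0. Clusters 11 and 12 held 0 of the cells with 3 or 4 on both days, and 5 of 28 at day 14 and 10 of 39 at day 0 of those with 5 or more. Other clusters held 3 of 19 at day 14 and 10 of 33 at day 0 of the first kind, and 3 of 28 and 2 of 39 of the second. Cluster 9 also held 29 cells of neither class at day 14 and 51 at day 0. Of these, 14 and 31 had more switched than unswitched heavy chain UMIs but fewer than 3, and 10 and 12 had no heavy chain UMI.

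**Figure D2:**
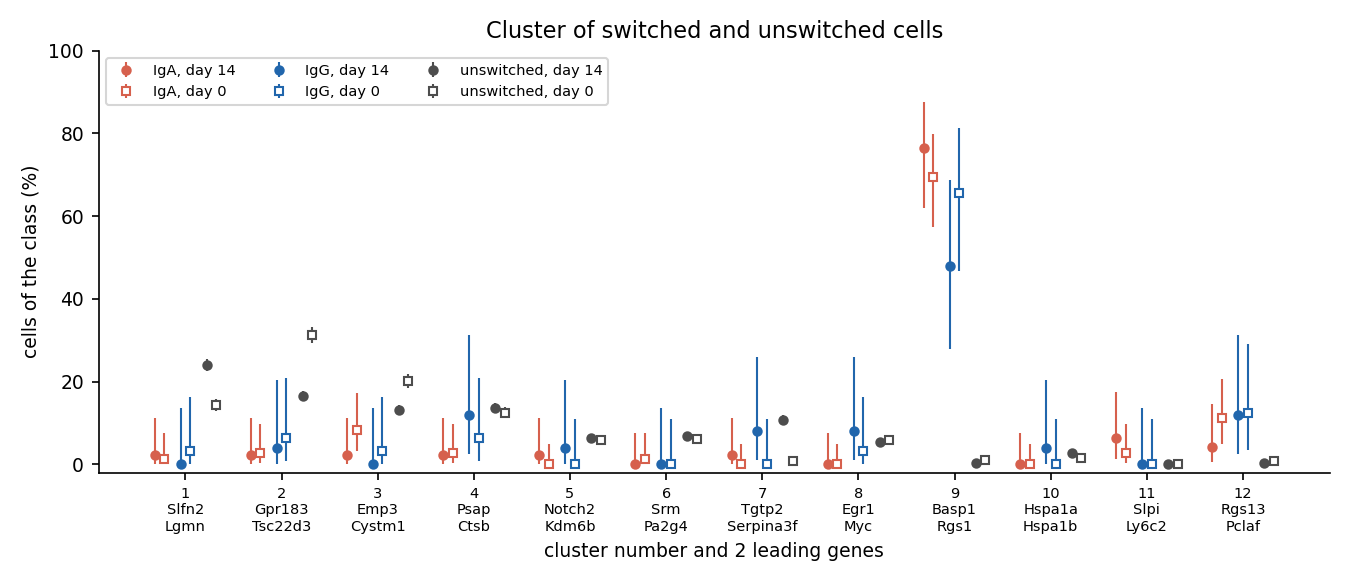
Percentage of IgA, IgG and unswitched cells of each library (vertical axis) in each of 12 clusters (horizontal axis, numbered and named by 2 leading genes); filled circles are day 14, open squares day 0, and lines are exact Clopper-Pearson 95% intervals. Between 48.0% and 76.6% of IgA or IgG cells of a library lie in cluster 9, against at most 1.05% of unswitched cells.

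Genes other than the constant genes were then compared between the classes, with the cells of each class summed per library and the library as a block. Of 8460 genes tested, 435 were higher in switched cells (5.14%) and 285 lower (3.37%), at a Benjamini-Hochberg adjusted p under 0.05 in edgeR's quasi-likelihood test and a change of at least 1.5-fold. The 4 sums leave 1 residual degree of freedom and the fit took its spread from the trend over all genes, so p-values rest mostly on counting error. DESeq2 called 155 higher and 59 lower, all of them among the calls of edgeR. A fit on the 142 switched cells that were neither germinal center, cycling nor plasma-like called 156 of 8297 genes higher (1.88%) and 98 lower (1.18%), together 3.06%, of which 113 and 79 were also called in all switched cells. These 142 are termed the remaining switched cells below. Counts of list members called below stand beside these shares over all genes. The shares were 5.14% higher and 3.37% lower, and 1.88% and 1.18% in the remaining switched cells.

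Of the 7 markers given for switched cells, the 5 that are not constant genes were all higher. They were proposed from earlier results of these data, so their direction is not independent evidence. Basp1, a membrane-associated protein also found in germinal center B cells, was at 210.4 CPM at day 14 and 239 at day 0 in switched cells, against 7.29 and 15.9 CPM in unswitched cells. Its log2 ratio was 4.21 ± 0.24 (SE; adjusted p = 6.2e-65). Here and below, ± gives an SE from the fit that gave the p-value. For switched against unswitched cells this SE too rests mostly on counting error and does not measure spread between the libraries. In the single libraries the log2 ratio of Basp1 was 4.85 at day 14 and 3.91 at day 0. Basp1 was seen in 26 of 72 and 39 of 104 switched cells, but in 0.979% and 2.40% of unswitched cells. Both switched sums lay above both unswitched sums.

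Rgs1 encodes a brake on chemokine receptor signalling. It was at 239.5 CPM at day 14 and 788 at day 0 in switched cells, against 39.3 and 71.4 CPM in unswitched cells (log2 ratio 3.01 ± 0.16, adjusted p = 6.9e-76). Nt5e, which makes adenosine at the cell surface, was at 58.3 and 102 CPM in switched cells, against 3.16 and 7.86 CPM in unswitched cells (3.77 ± 0.36, adjusted p = 1.0e-22). Cd80, a costimulatory ligand for T cells, was at 97.1 and 55.6 CPM in switched cells, against 2.19 and 6.11 CPM in unswitched cells (4.13 ± 0.40, adjusted p = 2.0e-22). Cd44, a hyaluronan receptor of antigen-experienced lymphocytes, was at 220.1 and 157 CPM in switched cells, against 28.0 and 36.5 CPM in unswitched cells (2.42 ± 0.21, adjusted p = 1.2e-27). In all of these the lower switched sum was above the higher unswitched sum, also among the remaining switched cells, where the log2 ratios were 4.77 for Basp1, 3.50 for Rgs1, 4.69 for Nt5e, 4.95 for Cd80 and 2.69 for Cd44.

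Of 21 measured memory B cell surface and fate genes, 4 were higher (Nt5e, Cd80, Cd44 and the death receptor gene Fas) and 6 lower (Cd38, Cd27, Icosl, Cd55, Hhex and Zeb2), with a median log2 ratio of 0.05, beside -0.03 over all genes. Fas was at 48.6 CPM at day 14 and 58.0 at day 0 in switched cells, against 4.50 and 7.51 CPM in unswitched cells (3.04 ± 0.41). Among the remaining switched cells the same 4 were called together with Cd86, another costimulatory ligand, at 346 and 389 CPM against 206 and 226 CPM in unswitched cells. Of the lower genes only Cd55, a complement regulator, was called there. Pdcd1lg2, which encodes PD-L2, was at 38.8 and 43.5 CPM in switched cells, against 24.9 and 36.2 CPM in unswitched cells (0.31 ± 0.33), and was called neither here nor in the remaining switched cells (0.71). Cd38, Cd27, Icosl, Hhex and Zeb2 were also lost with DESeq2.

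Genes outside these lists were picked once their values were known. Apoe encodes the lipid carrier apolipoprotein E and had the smallest adjusted p of all genes tested. It stood at 2172 CPM at day 14 and 3132 at day 0 in switched cells, against 603 and 941 CPM in unswitched cells (1.68 ± 0.08, adjusted p = 2.4e-100), and was detected in 62 of 72 and 92 of 104 switched cells. Rrad, a small GTPase gene, was at 278 and 305 CPM in switched cells, against 61.3 and 60.1 CPM in unswitched cells (2.15 ± 0.17). Among the remaining switched cells the log2 ratios were 2.08 for Apoe and 2.65 for Rrad. In those cells Lmnb1, which encodes lamin B1, was at 424 and 344 CPM against 90.5 and 57.2 CPM in unswitched cells, and the transcription factor gene Zbtb20 at 372 and 268 CPM against 64.0 and 68.7.

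**Figure D3:**
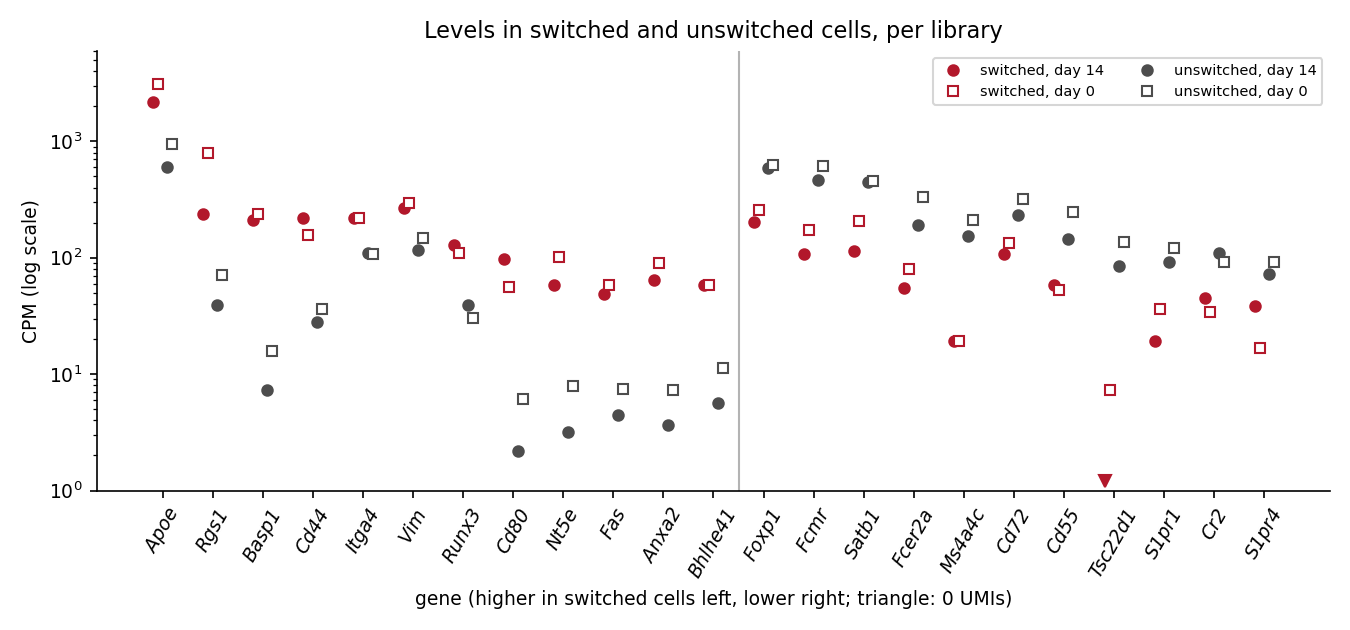
Levels of 23 genes in CPM (vertical axis, log scale) in the summed switched cells (red, left of each pair) and unswitched cells (grey, right) of each library, with filled circles for day 14 and open squares for day 0; a triangle marks a sum of 0 UMIs. In the left group both switched sums are above both unswitched sums, as for Cd80 (97.1 and 55.6 against 2.19 and 6.11 CPM), and in the right group they are below.

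Genes of naive and quiescent B cells were lower. Of 21 measured, 0 were higher and 13 lower, with a median log2 ratio of -0.85. Fcer2a encodes CD23, the low-affinity IgE receptor of follicular B cells. It was at 55.0 and 79.8 CPM in switched cells, against 193 and 332 CPM in unswitched cells (-2.08 ± 0.20). Fcmr, the IgM Fc receptor gene, was at 106.8 and 174 CPM in switched cells, against 464 and 611 CPM in unswitched cells (-2.04 ± 0.15).

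Foxp1 and Satb1 are transcription regulators on this list. Foxp1, which restrains B cell activation, was at 204 and 256 CPM in switched cells, against 584 and 623 CPM in unswitched cells (-1.50 ± 0.13). Satb1, a chromatin organiser, was at 113 and 206 CPM in switched cells, against 444 and 453 CPM in unswitched cells (-1.59 ± 0.15). The complement receptor gene Cr2, the inhibitory receptor gene Cd72, S1pr1, Cd55, Ccr7, Foxo1, Btg1 and Dusp2 were also among the 13. In the remaining switched cells 10 of 21 were lower, without Ccr7, Foxo1 and Btg1, and 1 was higher. DESeq2 also did not call Foxo1.

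That 1 gene was Klf2, the transcription factor gene that sustains S1pr1 in resting lymphocytes. Over all switched cells it was at 670.0 CPM at day 14 and 1057 at day 0, against 638 and 834 CPM in unswitched cells (0.10 ± 0.10), with no call. In the remaining switched cells it was at 976 and 1408 CPM (log2 ratio 0.60, adjusted p = 3.1e-06). In cells with 5 or more switched UMIs its log2 ratio was -0.71 (adjusted p = 1.0e-06), so its direction depends on which switched cells are taken. Outside the lists, and also picked once their values were known, Ms4a4c was at 19.4 and 19.3 CPM in switched cells, against 154 and 213 CPM in unswitched cells, and Tsc22d1 had 0 UMIs at day 14 and 3 at day 0 in switched cells, against 85.6 and 135 CPM in unswitched cells (adjusted p = 2.4e-29 and 2.6e-24).

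Receptors that steer B cells in and out of tissue differed in both directions. Of 21 measured homing and adhesion genes, 4 were higher and 6 lower. On the higher side, Itga4, the alpha chain of the gut-homing integrin alpha4beta7, was at 220.1 CPM in switched cells on both days, against 109 and 108 CPM in unswitched cells (0.90 ± 0.17, adjusted p = 6.6e-06). Itgb7, the beta chain gene of that integrin, was not called, with log2 ratios of -0.62 in all and -0.47 in the remaining switched cells. Vim, the intermediate filament vimentin, was at 269 and 293 CPM in switched cells, against 117 and 149 CPM in unswitched cells (0.97 ± 0.16). Gpr55, a lysolipid receptor gene, had 6 and 11 UMIs, and Icam1 15 and 30. Among the lower ones were Ccr7, the egress receptor genes S1pr1 and S1pr4, the oxysterol receptor gene Gpr183, and Cd69, whose product retains lymphocytes by binding S1PR1. S1pr1 was at 19.4 and 36.3 CPM in switched cells, against 92.5 and 122 CPM in unswitched cells (-2.03 ± 0.29), and S1pr4 at 38.8 and 16.9 CPM against 72.8 and 92.1 (-1.76 ± 0.31). Itga4, Vim, Gpr55, S1pr1 and S1pr4 were also called in the remaining switched cells. DESeq2 did not call Gpr55, Icam1, Gpr183 or Cd69.

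Among 16 genes of chemotaxis brakes and G protein signalling, Rgs1, Rgs13 and Rgs10 were higher and 0 lower. Rgs13, a germinal center gene, had 25 UMIs in 4 cells at day 14 and 47 in 7 cells at day 0, and 0 UMIs in the remaining switched cells. Rgs10 was called neither in the remaining switched cells (log2 ratio 1.13) nor in IgG cells alone (0.70). Rgs1 was the only gene of the list called in the remaining switched cells.

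The germinal center and plasma cell lists were high in few of the switched cells. Of 12 measured germinal center genes 8 were higher and 1 (Cd38) lower, with a median log2 ratio of 2.32. The proliferation gene Mki67 had 14 UMIs in 9 switched cells at day 14 and 10 in 4 at day 0, and Ccnb2, a mitotic cyclin, 9 in 5 and 20 in 7. By summed germinal center and cell cycle markers, 33 switched cells were germinal center or cycling cells, 14 of 72 (19.4%) at day 14 and 19 of 104 (18.3%) at day 0, against 2.11% and 2.66% of unswitched cells. In the remaining switched cells 2 of 8 measured genes were higher, Basp1 and Fas, neither of which was used to set cells aside. The fall of the other members there is fixed in part by that choice of cells, and likewise for the plasma cell list.

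Of 15 measured plasma cell genes 12 were higher and 0 lower, with a median log2 ratio of 1.58. Edem1, which clears misfolded proteins from the endoplasmic reticulum, was at 252 and 111 CPM in switched cells, against 17.6 and 23.9 CPM in unswitched cells (2.97 ± 0.23). Fkbp11 had 38 UMIs in 3 switched cells at day 14 and 9 in 2 at day 0, and Derl3 19 in 6 and 10 in 5. Only 7 of the 176 cells were plasma-like, 3 at day 14 and 4 at day 0, yet they held 15.0% of the UMIs of all switched cells. Without them and the germinal center cells, 1 of 13 genes was higher. This was Mzb1, a chaperone of antibody assembly, at 785 and 751 CPM among the remaining switched cells (0.94, adjusted p = 2.4e-11). Over all switched cells Mzb1 stood at 1949 and 1212 CPM, against 383 and 414 CPM in unswitched cells. Without plasma-like cells Xbp1, Creld2 and Hsp90b1 had log2 ratios of -0.53, -0.11 and -0.02, none of them called, and the call of Creld2 was also lost with DESeq2.

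**Figure D4:**
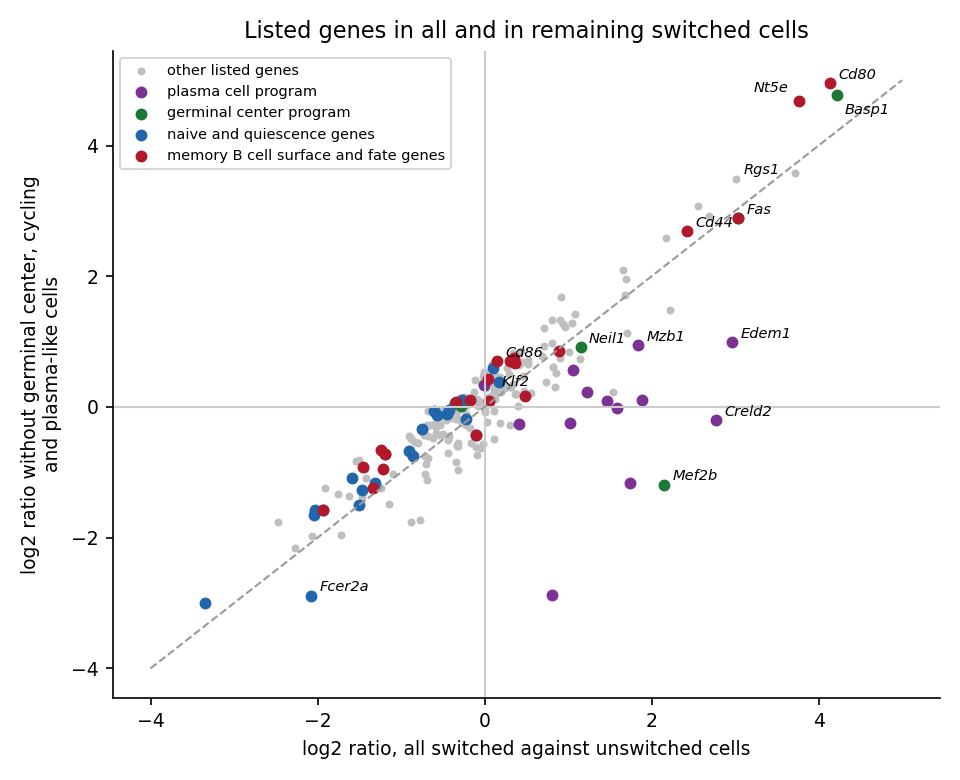
Log2 ratio of switched over unswitched cells for 235 listed genes, over all switched cells (horizontal axis) and without germinal center, cycling and plasma-like cells (vertical axis); the dashed line marks equal values. Genes of the plasma cell program fall toward 0 on the vertical axis, as Creld2 does, while Cd80, Nt5e, Basp1, Rgs1, Cd44 and Fcer2a keep their side.

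In the list of class switch, TGF-beta and cytokine genes, 3 of 27 were higher, among them Ung and Runx3, and 1 was lower, Il10ra. Runx3, one of the TGF-beta partners in IgA switching, was at 129.5 and 109 CPM in switched cells, against 39.3 and 30.6 CPM in unswitched cells (1.66 ± 0.24, adjusted p = 1.8e-10). It was also called in the remaining switched cells (2.09) and in IgG cells alone. Ung and Il10ra were not called by DESeq2.

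Antigen presentation genes were higher for 2 of 17, Cd80 and Cd274, and lower for 4, H2-DMb1, H2-Oa, H2-Ob and Icosl. H2-Oa and H2-Ob encode the DO molecule, which holds back peptide loading of MHC class II. They were at 308 and 266 CPM, and at 317 and 276 CPM, in switched cells, against 415 and 437, and 394 and 509, in unswitched cells. Cd274, which encodes PD-L1, was at 133 and 67.7 CPM in switched cells, against 53.5 and 49.1 CPM in unswitched cells (0.80 ± 0.24), a call that DESeq2 did not make. In the remaining switched cells Cd80, Cd86 and Cd274 were higher and 0 of 17 lower. Of 25 B cell receptor complex and signalling genes, 0 were higher and 4 lower (Cd22, Cd72, Vav1 and Cr2), and DESeq2 did not call Cd22 or Vav1. In IgG cells alone 1 of 25 was lower.

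The list of immediate early genes and NF-kB feedback was divided, with 5 of 30 higher and 7 lower. Nr4a3, an orphan nuclear receptor induced by antigen receptor signals, was at 55.0 and 33.9 CPM in switched cells, against 8.51 and 9.26 CPM in unswitched cells (2.18 ± 0.40, adjusted p = 2.1e-06). Myc had 2 UMIs at day 14 and 11 at day 0 in switched cells (6.47 and 26.6 CPM), against 41.3 and 45.4 CPM in unswitched cells. Fosb, Nr4a2, Atf3, Dusp1, Egr3, Nfkbid and Myc were called by edgeR and not by DESeq2. In the remaining switched cells 5 were higher (Fosb, Nr4a1, Nr4a2, Nr4a3 and Dusp1) and 1, Dusp2, was lower.

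Among cytoskeleton genes 5 of 22 were higher and 2 lower, and among B-1 and marginal zone genes 3 of 13 were higher and 3 lower. Anxa2, a calcium-dependent membrane binder, was at 64.7 and 89.5 CPM in switched cells, against 3.65 and 7.34 CPM in unswitched cells (3.71 ± 0.37). Lgals1, which encodes galectin-1, was at 165 and 191 CPM against 28.9 and 41.9 CPM (2.22 ± 0.21). Bhlhe41, a transcription factor gene of B-1a cells, was at 58.3 and 58.0 CPM against 5.59 and 11.2 CPM (2.69 ± 0.37). These 3 genes were also called in the remaining switched cells. Of 17 survival and death genes, Fas and the pro-apoptotic Bbc3 were higher and 0 lower. DESeq2 did not call Bbc3. Of 25 genes associated with interferon-gamma, Psmb9 and Cd274 were higher and 0 lower, with a median log2 ratio of -0.32, and DESeq2 called neither.

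Ranked by log2 ratio alone, the 12 highest genes besides Basp1, Cd80, Nt5e and Anxa2 were Slpi, Rrm2, Gatm, Fkbp11, Ly6c2, Pclaf, Ctla4 and Derl3. Several rested on single cells. All 108 Slpi UMIs at day 14 came from 1 cell, and 57 of the 71 Ly6c2 UMIs at day 0 from another. Pclaf and Rrm2 serve DNA replication and had 6 and 4 positive cells at day 14 and 9 of each at day 0. Gatm, an enzyme of creatine synthesis, was more widespread, with 9 UMIs in 7 switched cells at day 14 and 26 in 16 at day 0, against 0.486 and 3.32 CPM in unswitched cells (4.57 ± 0.55). Ctla4, an inhibitory receptor gene best known in T cells, had 21 UMIs in 7 switched cells at day 14 and 11 in 3 at day 0. Of the 9 T cell markers, Cd3d and Trbc2 were detected at day 14 and Trac and Cd4 at day 0, with 2 and 5 UMIs in all, and their part in the Ctla4 level was not tested.

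The 12 genes with the lowest ratios (Wls, Olfr889, Plpp6, Map4k5, Sh3bp2, Tfap4, Ccdc180, Armc3, Ccl4, Gstm1, Ctnna1 and Cbr4) all had 0 UMIs in switched cells and 94 to 144 in unswitched cells. Against a floor of 3 counts over both libraries (4.15 CPM) they were at least 1.62-fold to 2.49-fold lower. DESeq2 gave none of them an adjusted p.

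The IgG cells were also set against unswitched cells by themselves. Ighg2b UMIs occurred in few unswitched cells, but in 9 of 47 IgA cells (19.1%) at day 14 and 9 of 72 (12.5%) at day 0. In these 57 cells 72 of 8366 genes were higher (0.861%) and 79 lower (0.944%), together 1.8%. Of these, 69 and 63 were also called over all switched cells. Rgs1, Basp1, Nt5e, Cd80, Cd44, Fas, Apoe, Rrad and Runx3 were among the higher genes, and Fcer2a, Fcmr, Foxp1, Satb1, S1pr1 and Cd55 among the lower ones.

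IgA and IgG cells were then set beside each other, with 10 of 1826 genes higher in IgA cells (0.548%) and 0 lower (0%). At an unadjusted p under 0.05 there were 152 genes, and DESeq2 called 1 gene, Hsp90b1. Of the 10, Creld2, Hsp90b1, Pdia4 and Sdf2l1 are on the plasma cell list, and the others were Ssr2, Pdia6, Rexo2, Slpi, Ly6c2 and Hspb1. Hsp90b1, a chaperone of the endoplasmic reticulum, was at 1622 CPM at day 14 and 1161 at day 0 in IgA cells, against 258 and 143 CPM in IgG cells (2.81 ± 0.22, adjusted p = 0.00050). Slpi and Ly6c2 rested on the single cells named above, and 59 of the 61 Hspb1 UMIs came from 1 IgA cell at day 0. Of the 7 plasma-like cells 6 were IgA cells, and without these 7 cells Hsp90b1 had a log2 ratio of 0.51 and was not called.

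Lmna, Vps37b and Cd79b were not called over all cells (adjusted p = 0.22, 0.41 and 0.16 in edgeR's test), were called without plasma-like cells, and were not called once germinal center and cycling cells were left out too (adjusted p = 0.19, 0.19 and 0.99). Lmna, which encodes lamin A/C, had 24 UMIs at day 14 and 95 at day 0 in IgA cells, and 0 and 15 in IgG cells. Vps37b was at 544 and 810 CPM in IgA cells, against 350.0 and 509 CPM in IgG cells. Cd79b, a chain of the B cell receptor, was at 434 and 629 CPM in IgA cells, against 1087 and 970 CPM in IgG cells, over all cells of each class.

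The genes typical of switched cells were not called between the classes. Cd44 was at 255 and 181 CPM in IgA cells, against 157 and 103 CPM in IgG cells (0.75 ± 0.30, adjusted p = 0.58), and Cd80 at 115 and 66.0 CPM against 64.5 and 31.8 CPM (0.91 ± 0.47, adjusted p = 0.70). Basp1 was at 220 and 216 CPM in IgA cells, against 193 and 294 CPM in IgG cells (-0.17 ± 0.28), and Nt5e at 69.9 and 83.4 CPM against 36.8 and 143 CPM (-0.24 ± 0.47). Rgs1 was at 299 and 653 CPM in IgA cells, against 129 and 1097 CPM in IgG cells, higher in IgA cells at day 14 and lower at day 0 (-0.14 ± 0.36). Ccr6, the receptor for the epithelial chemokine CCL20, had the same direction in both libraries, at 64.9 and 66.0 CPM in IgA cells, against 147 and 135 CPM in IgG cells (-1.09 ± 0.37, adjusted p = 0.42). Fcer2a had 4 and 11 UMIs in IgA cells, against 13 and 22 in IgG cells, which is 19.96 and 38.2 CPM against 120 and 175 CPM (-2.30 ± 0.44, adjusted p = 0.066).

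Between the days, within switched cells, few genes passed 2-fold. A 2-fold difference upward at day 14 was seen for 17 of 1826 genes (0.931%) and downward for 35 (1.92%), over genes with 50 or more UMIs and with no test. The share past 2-fold in either direction was 2.85%, beside 0.863% of 8341 genes in unswitched cells, whose sums are far deeper.

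Rgs1 was lower at day 14, with 74 UMIs in 27 of 72 switched cells (239.5 CPM) at day 14 and 326 in 55 of 104 (788 CPM) at day 0. The ratio was 0.30 (exact conditional 95% interval 0.23 to 0.39), beside 0.55 (0.47 to 0.64) in unswitched cells. Among the remaining switched cells it was 0.32. In IgA cells Rgs1 had 60 and 188 UMIs and in IgG cells 14 and 138, with ratios of 0.46 and 0.12. Lmna had a ratio of 0.29 (0.18 to 0.46) in switched cells and 0.62 (0.53 to 0.72) in unswitched cells.

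The other genes of cluster 9 moved less. Basp1 had a ratio of 0.88 (0.63 to 1.21) in switched cells, 1.504 among the remaining switched cells and 0.46 (0.33 to 0.64) in unswitched cells. Cd44 had 1.40 (0.98 to 2.00) and 0.77 (0.63 to 0.93), Cd80 1.75 (0.98 to 3.15) and 0.36 (0.19 to 0.65), and Nt5e 0.57 (0.31 to 1.02) and 0.40 (0.24 to 0.67). The intervals of all 4 in switched cells include 1.

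Of 11 measured plasma cell genes, 3 were past 2-fold higher at day 14 (Edem1, Creld2 and Sdf2l1) and 0 lower. Among the genes with the highest day ratios, plasma-like cells held most day 14 UMIs of those that follow. At day 0, 14 of 18 Ift20 UMIs, 25 of 33 Rpn1, 93 of 162 Sec61b and 29 of 58 Ssr2 UMIs lay outside plasma-like cells. Creld2 had 94 UMIs at day 14 and 35 at day 0 (3.59, 2.41 to 5.46), and 7 and 8 without plasma-like cells (1.23). Manf, a protective factor of the endoplasmic reticulum, had 222 and 115 (2.58, 2.05 to 3.27), and 41 and 54 without those cells (1.07). Ssr2, Sdf2l1, Ift20 and Rpn1 had ratios of 2.82, 2.93, 3.198 and 2.51, and of 1.36, 1.16, 1.41 and 0.85 without them. Among the remaining switched cells the ratios were 2.13 for Rpn1 (14 and 9 UMIs) and 2.05 for Creld2 (6 and 4 UMIs). There Ssr2 was at 1.91, Ift20 at 1.64, Manf at 1.25 and Sdf2l1 at 1.14. Sec61b, part of the protein translocation channel, was at 2.02 (1.65 to 2.47) in all switched cells and 1.52 without plasma-like cells. It was at 1.81 among the remaining switched cells and 1.201 in unswitched cells. The plasma-like cells were 3 at day 14 and 4 at day 0.

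Of the genes with the lowest day ratios, several encode chaperones. Hspd1 had 34 UMIs at day 14 and 147 at day 0 (0.31, 0.21 to 0.45), and Hsph1 13 and 64 (0.27, 0.14 to 0.50), beside ratios of 1.001 and 0.73 in unswitched cells. Among the remaining switched cells they were 0.62 and 0.44. Dnaja1 had 52 and 188 UMIs and Dnajb1 28 and 110, of which 69 and 67 at day 0 lay in 1 cell each. Without the cell with most UMIs of the gene in each library the ratios were 0.33 for Hspd1, 0.19 for Hsph1, 0.50 for Dnaja1 and 0.76 for Dnajb1. Among the remaining switched cells Dnaja1 was at 0.67 and Dnajb1 at 0.90.

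The interferon-gamma list, summed over its genes, was higher at day 14 in both classes. It stood at 2191 CPM at day 14 and 1412 at day 0 in switched cells (ratio 1.55, 1.39 to 1.74), and at 1859 and 1259 CPM in unswitched cells (1.48, 1.44 to 1.52). Of its 7 measured genes in switched cells 0 passed 2-fold, and of 25 in unswitched cells 11 were higher by that measure. The list of naive and quiescence genes had 0 of 15 past 2-fold in switched cells, and its sum ratios were 0.85 in both classes.

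**Figure D5:**
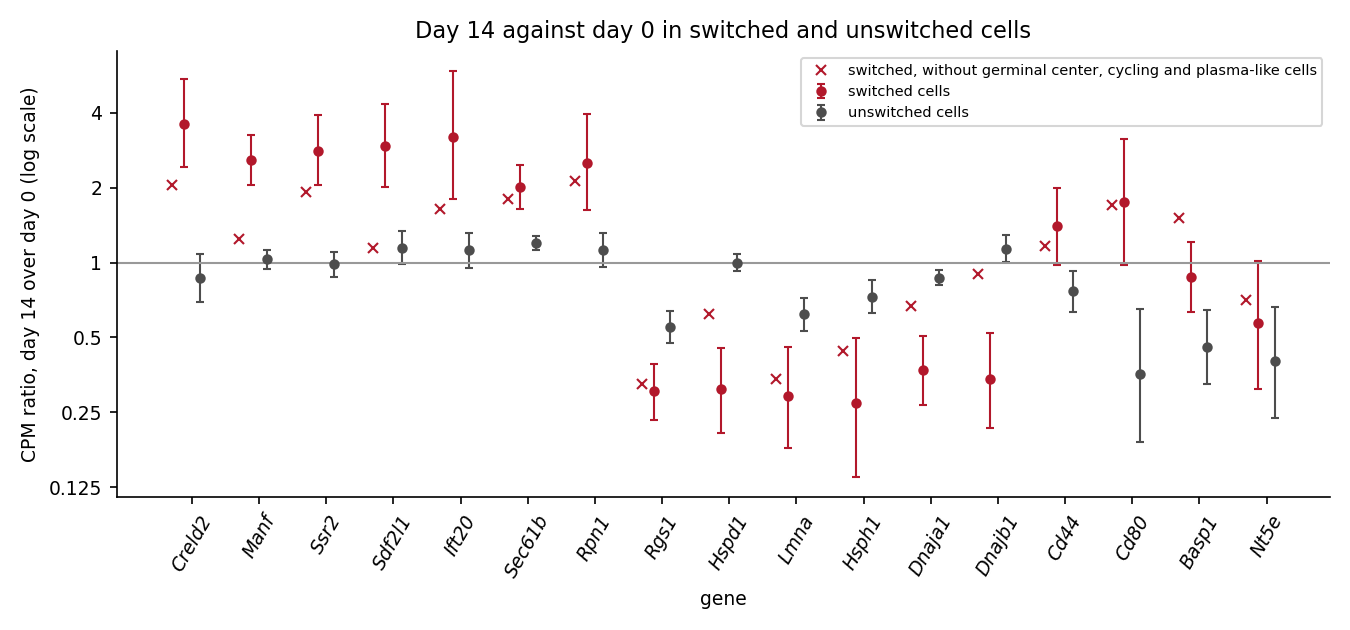
Ratio of CPM at day 14 over day 0 (vertical axis, log scale) for 17 genes in switched cells (red circles), the same without germinal center, cycling and plasma-like cells (crosses) and in unswitched cells (grey circles), with exact conditional 95% intervals for counting error; Slpi, Ly6c2 and Hspb1 are not drawn because single cells hold nearly all their UMIs. Creld2, Manf and Sdf2l1 lie nearer to 1 as crosses (2.05, 1.25 and 1.14), while the cross of Rpn1 is at 2.13 and Rgs1 stays near 0.32.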

How the data were processed

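The authors deposited UMI counts per gene and barcode. Per the file headers Cell Ranger 3.0.1 made them, and mm10 is the build per the submitters' processing notes. For the annotation and for cell calling, settings were not given in the sources at hand. The deposited natural log tables, ln(1 + 10000 × UMIs / total) as checked against the counts, come from a workflow that names Seurat 3.0 per the submitters' processing notes. They served only to define the cells. They lack 88 of the 4780 day 14 barcodes and 86 of the 3376 day 0 barcodes, by a filter that is not stated. Libraries held 12317052 and 8690102 UMIs over the cells kept. Positions are from GENCODE M21.

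Raw counts were summed per library and class, without immunoglobulin and mitochondrially encoded genes. Genes with at least 50 UMIs over 4 sums were tested with edgeR 4.0.16 (quasi-likelihood test, TMM factors, library as a block, R 4.3.3). The block is the library itself, since both classes of a library come from the same sample. DESeq2 1.42.0 was an alternative. Log2 ratios of a single library use a pseudocount of 0.5. The libraries were of different conditions, untreated and DSS with recovery, and were not replicates. The p-values therefore measure the difference between classes within these libraries. Clustering used scanpy 1.11.5 and leidenalg 0.10.2 (2000 genes, 20 components, 20 neighbours, resolution 0.8). Germinal center or cycling cells had 2 or more UMIs of such markers other than Basp1, Fas, Bcl6 and Stmn1, and plasma-like cells 5 or more of plasma markers other than Jchain, Mzb1, Irf4 and Xbp1. Doublets were not called, and cells over 2 times the median UMIs were left out in an alternative.

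The genes named are the 12 highest and 12 lowest called genes that differ the same way in both libraries, up to 8 called each way between IgA and IgG cells, the 8 highest and 8 lowest day ratios by their bounds, the 7 markers, and up to 4 members of each list with its most abundant one; others taken by this rule are not printed. Some listed genes that the counts include are not reported here. Further list members are given where a list's calls are counted. Genes named otherwise, including Klf2's alternatives, Ms4a4c, Tsc22d1, Apoe, Rrad, Lmnb1, Zbtb20, Cd86, Pdcd1lg2, Pdia6, Rexo2, Vps37b and Cd79b, were picked with their values in view. The members, lists and rules were chosen with earlier results of these data known.

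The fit was tested on simulated data. Each of the 4 sums was drawn independently at a dispersion of 0.02, with no UMIs bunched in single cells as those of Slpi were. The counts below hold for that setting and give no error rate for the real sums. For switched against unswitched cells (8345 genes) it called 47 of 49 genes at 4-fold, 11 of 49 at 2-fold, 5 of 50 at 0.5-fold, 24 of 49 at 0.25-fold and 3 of 8148 without a change. For IgA against IgG cells (1697 genes) it called 49 of 50 at 4-fold and 26 of 50 at 2-fold.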

Additional observations from a re-analysis of the deposited data

Results flagged for a closer look

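Dnajb1, which encodes a heat shock co-chaperone, moved in opposite directions in the 2 classes of cells. Its day 14 over day 0 ratio was 0.341 (0.217 to 0.520) in switched cells and 1.14 (1.01 to 1.29) in unswitched cells, and the difference was not tested, since each day is 1 library. In switched cells 67 of the 110 UMIs at day 0 lay in 1 cell, and without the cell with most UMIs of each library the ratio was 0.76. Among the remaining switched cells it was 0.90 (19 and 29 UMIs). In IgG cells alone it was 0.81 and in IgA cells alone 0.22.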

How the results depend on the processing

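Of 84 genes named between switched and unswitched cells, 56 kept their direction and side of the threshold with DESeq2 and 28 lost the call. None of these 84 turned direction between the libraries. For the highest and lowest genes this was fixed in advance, since they were picked among genes that differ the same way in both. Called genes numbered 155 higher and 59 lower with DESeq2, 119 and 66 under 10% immunoglobulin RNA, and 163 and 98 without cells over 2 times the median UMIs. They numbered 185 and 111 without germinal center and cycling cells, and 244 and 182 without plasma-like cells. Without germinal center, cycling and plasma-like cells they numbered 156 and 98. There were 72 and 79 in IgG cells, and 173 and 103 in cells of 2000 to 5000 UMIs. Cells thinned to 1000 UMIs gave 47 and 46, which left out 63 shallower cells at day 14 and 34 at day 0. The newer quasi-likelihood fit gave 162 lower. Without the library as a block, 398 genes were higher and 235 lower, and Atf3, Cd69, Dusp1, H2-DMb1, Nr4a2, Psmb9 and Vav1 were lost. Between IgA and IgG cells that fit gave 7 and 1. The newer fit, the 2000 to 5000 window, IgG cells only, IgA cells with at least 5 UMIs, the remaining switched cells and leaving out each gene's top cell were chosen after seeing the data, as was leaving out plasma-like cells between IgA and IgG cells. The cause of these changes was not tested.

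Switched cells were 0.895% at day 14 and 1.73% at day 0 with at least 5 switched UMIs, 2.00% and 3.92% with at least 2, 1.15% and 2.59% without deep cells, and 0.389% and 1.01% thinned. The ratio of the shares lay between 0.38 and 0.53.

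Genes higher in IgA than IgG cells numbered 1 with DESeq2, median-of-ratios factors, a minimum of 200 UMIs, no deep cells, or no germinal center, cycling and plasma-like cells, 2 without plasma-like cells, 4 under 10% immunoglobulin, 26 with switched UMIs 3 times unswitched, 41 with at least 5 switched UMIs and 42 with a minimum of 1 UMI. Genes lower numbered 1 with library totals, no block or no plasma-like cells, 2 with a minimum of 1 UMI or under 10% immunoglobulin, 4 with the 3 times rule and 6 with at least 5.

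Genes past the fold between days, higher and lower, numbered 109 and 177 with a minimum of 20 UMIs, 2 and 4 with 200, 98 and 178 at 1.5-fold, 4 and 9 without deep cells, 8 and 9 in the remaining switched cells, 1 and 2 thinned, 3 and 11 in IgG cells, and 5 and 6 in the window. There were 6 higher under 10% immunoglobulin and 17 lower without each gene's top cell. No paired analysis was possible because each day is 1 library.

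Directions turned as follows, log2 unless stated. Under 10% immunoglobulin, Creld2 was -0.085, Hsp90b1 -0.070, Ly6c2 -0.64 and Xbp1 -0.54 between switched and unswitched cells, and Nt5e 0.0098 and Rgs1 0.0169 between IgA and IgG cells. Without plasma-like cells these were -0.11, -0.015, -0.56, -0.53, 0.091 and 0.0164, with Basp1 at 0.017. Without deep cells Creld2 was -0.13, Xbp1 -0.38, Mef2b -0.51 and Rgs13 -7.34 (0 UMIs left), and between IgA and IgG cells Basp1 was 0.21 and Rgs1 0.19. In the remaining switched cells Creld2 was -0.20, Xbp1 -0.24 and Mef2b -1.19, with Basp1 0.55 and Rgs1 0.24 between IgA and IgG cells. In IgG cells Creld2 was -0.16, Hsp90b1 -0.56, Nr4a2 -0.35 and Xbp1 -0.84. In the window Mef2b was -0.55, Rgs13 -7.09 and Xbp1 -0.22. Mef2b was -1.22 without germinal center and cycling cells, and Ung -0.52 thinned. Klf2 was -0.0062 with a minimum of 1 UMI, -0.71 with at least 5 switched UMIs and -1.004 in such IgA cells. Between IgA and IgG cells Rgs1 was 0.18 with DESeq2 and 0.075 with the 3 times rule, and between the single libraries the range was -0.75 to 1.18 for Rgs1, -0.79 to 0.80 for Nt5e, -0.46 to 0.17 for Basp1 and -0.88 to 5.75 for Hspb1. The Basp1 day ratio was 1.54 without deep cells, 1.02 in IgA cells, 1.504 in the remaining cells and 1.41 in the window.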
